A study of Mus musculus with 2 samples.

Results

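AA467197 and Ndufa4 encode a pair of related small proteins of mitochondrial complex IV, and their transcripts were followed in tumour-infiltrating natural killer (NK) cells. These 2 genes, of 53715 listed in the files, were picked by symbol after their levels in these data were known, and what follows on their levels is a description with no test. The cells were sorted as CD45.2+CD3-NKp46+ from tumours of the CT26_b2m-/- colon carcinoma, a mouse colon carcinoma line made deficient in the light chain of MHC class I, which NK cells read as missing self. By the sample titles, 1 library came from IL-15SA+IL-21Fc treatment and 1 from IL-15SA treatment. Both groups thus share the tumour, the sort and IL-15SA, and the labels give no untreated group, dose, time, mouse strain or age. The labels say that cells were pooled by treatment, which leaves 1 library a group and no replicate check. Every interval here is a 95% interval that covers counting error only.

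Complex IV (cytochrome c oxidase) passes electrons from cytochrome c to oxygen and is the last enzyme of the respiratory chain. NDUFA4 was first assigned to complex I, from which it takes its name, and is now known as a subunit of complex IV. AA467197 is the mouse counterpart of the human gene whose product is called MOCCI, and its transcript also carries the hairpin of the microRNA miR-147. In human cells MOCCI can take the place of NDUFA4 in complex IV during inflammation, and the microRNA lowers NDUFA4. NF-kB signalling is known to induce AA467197 in macrophages.

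The AA467197 gene (ENSMUSG00000033213) lies at chr2:122636986-122641191 on the plus strand and the Ndufa4 gene (ENSMUSG00000029632) at chr6:11900292-11907497 on the minus strand of mm10, in the GENCODE M21 annotation. The main AA467197 transcript has 5 exons and 83 codons, and the main Ndufa4 transcript has 4 exons and 82 codons. Mir147, at chr2:122640803-122640881 on the plus strand, lies within exon 5 of AA467197, and starts 37 bases after the end of the coding sequence, in the 3′ UTR. These 3 sequences come from RefSeq (GRCm38.p6): the 2 promoters, because they give the sequence context of a gene that differed between the libraries and of a paralog that differed little, and the 5p arm of miR-147, whose other arm is miR-147-3p, because AA467197 carries both a protein and a microRNA. Each promoter runs from 250 bases before to 50 bases after the RefSeq start of the gene, at chr2:122637637-122637936 (plus strand) for AA467197 and at chr6:11907401-11907700 (minus strand) for Ndufa4. The RefSeq start of AA467197 lies downstream of its GENCODE start, so its whole window lies inside the gene coordinates given above. The Ndufa4 window extends upstream of the GENCODE start of Ndufa4. Capitals in the promoters mark the bases from the RefSeq start onward, and capitals in the microRNA mark its seed, bases 2 to 8. The miR-147-3p sequence was not available here, and the 5p seed is not given as one that acts on Ndufa4.
AA467197 promoter: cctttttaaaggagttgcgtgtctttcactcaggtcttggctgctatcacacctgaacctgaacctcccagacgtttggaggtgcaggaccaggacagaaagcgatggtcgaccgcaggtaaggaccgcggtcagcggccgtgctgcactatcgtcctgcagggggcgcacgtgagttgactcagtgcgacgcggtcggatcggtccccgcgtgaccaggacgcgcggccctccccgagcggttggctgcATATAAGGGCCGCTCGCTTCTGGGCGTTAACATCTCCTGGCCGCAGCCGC
Ndufa4 promoter: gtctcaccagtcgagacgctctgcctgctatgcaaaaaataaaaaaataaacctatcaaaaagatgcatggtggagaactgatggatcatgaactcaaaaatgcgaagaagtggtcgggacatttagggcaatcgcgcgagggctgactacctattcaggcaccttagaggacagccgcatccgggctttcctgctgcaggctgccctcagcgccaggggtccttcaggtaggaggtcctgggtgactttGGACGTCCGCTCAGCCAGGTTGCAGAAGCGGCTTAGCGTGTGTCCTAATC
mmu-miR-147-5p: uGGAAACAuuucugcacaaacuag

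Searched on both strands, the NF-kB consensus had 0 matches in both promoters, and 8.46% of 32851 promoters of the same length hold it. A looser form with any 5 bases in its centre had 1 match in the AA467197 promoter and 0 in the Ndufa4 promoter, and 50.8% of those promoters hold it. The STAT-type motif TTCNNNGAA had 0 matches in both promoters, and 8.30% of those promoters hold it. A match is a description of the letters, not a site, and no match says only that these letters are not in this window. The AA467197 promoter holds 29 CpG dinucleotides and the Ndufa4 promoter 14, against a median of 7 over those promoters.

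The deposited libraries held 12435 barcodes with 35336180 UMIs for IL-15SA+IL-21Fc and 8386 barcodes with 30893388 UMIs for IL-15SA. After removal of barcodes with high doublet scores, 10502 barcodes (88.9%) of the IL-15SA+IL-21Fc library and 7393 (92.8%) of the IL-15SA library held at least 1 UMI of Ncr1, which encodes NKp46, the receptor used in the sort. Their median depth was 2405 UMIs with IL-15SA+IL-21Fc and 3136 with IL-15SA. All 10 NK markers were detected in both libraries, summed to 32606 UMIs per 1000000 UMIs (CPM) with IL-15SA+IL-21Fc and to 37077 CPM with IL-15SA. The tumour or stroma list summed to 4466 CPM with IL-15SA+IL-21Fc and 4498 CPM with IL-15SA, of which Lgals1, a gene NK cells also express, gave 4114 CPM with IL-15SA+IL-21Fc and 4333 CPM with IL-15SA. The other lists summed to between 0.133 CPM (neutrophils) and 461 CPM (innate lymphoid cells type 1) with IL-15SA+IL-21Fc and between 0.0361 and 354 CPM for the same lists with IL-15SA. Each library shared 60 barcode sequences with the other; leaving those out gave a log2 ratio of -1.0 for AA467197 and 0.02 for Ndufa4, as with them.

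AA467197 was lower in the IL-15SA+IL-21Fc library. It had 631 UMIs, or 20.9 CPM (19.3 to 22.6), in Ncr1-positive barcodes with IL-15SA+IL-21Fc, against 1157 UMIs, or 41.7 CPM (39.4 to 44.2), with IL-15SA. The 2 intervals do not overlap, and the ratio of IL-15SA+IL-21Fc over IL-15SA was 0.501 (0.454 to 0.552), a 2.0-fold lower level. Ndufa4 had 33069 UMIs, or 1096 CPM (1084 to 1108), with IL-15SA+IL-21Fc, against 30033 UMIs, or 1084 CPM (1071 to 1096), with IL-15SA. Its intervals overlap, and its ratio was 1.01 (0.996 to 1.03). AA467197 UMIs per 1000 Ndufa4 UMIs, a quantity that does not depend on the library total, were 19.1 (17.6 to 20.6) with IL-15SA+IL-21Fc and 38.5 (36.3 to 40.9) with IL-15SA, 2.02-fold lower. UMIs are not divided by transcript length, so this quantity compares libraries and clusters, not the abundance of the 2 transcripts.

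Of 5482 genes that reached 20 CPM in either library, 103 (1.88%) lay past 1.5-fold on the higher side with IL-15SA+IL-21Fc and 24 (0.438%) past 1.5-fold on the lower side, with 1 CPM added to both values. On that scale AA467197 had a log2 ratio of -0.96, the 10th lowest of all, and Ndufa4 one of 0.02, beside a median of -0.01 over all genes. Ndufa4l2, the third gene of the family, whose product is known from hypoxic human cells, was close to the detection limit with 6 UMIs with IL-15SA+IL-21Fc and 4 with IL-15SA, a ratio of 1.38 (0.327 to 6.64). It overlaps a gene on the opposite strand, and whether counting used strand is not given in the sources used here. Mir147 had 0 UMIs in both libraries, but its bases belong to AA467197 as well by the annotation. How UMIs on shared bases were assigned is not given in the sources used here, so this 0 does not show that the microRNA is absent. Of the stretches of 31 bases in AA467197 transcripts, 4.0% occur in another gene, Mir147 alone, and for Ndufa4 2.21% do, in 4 other genes.

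**Figure D1:**
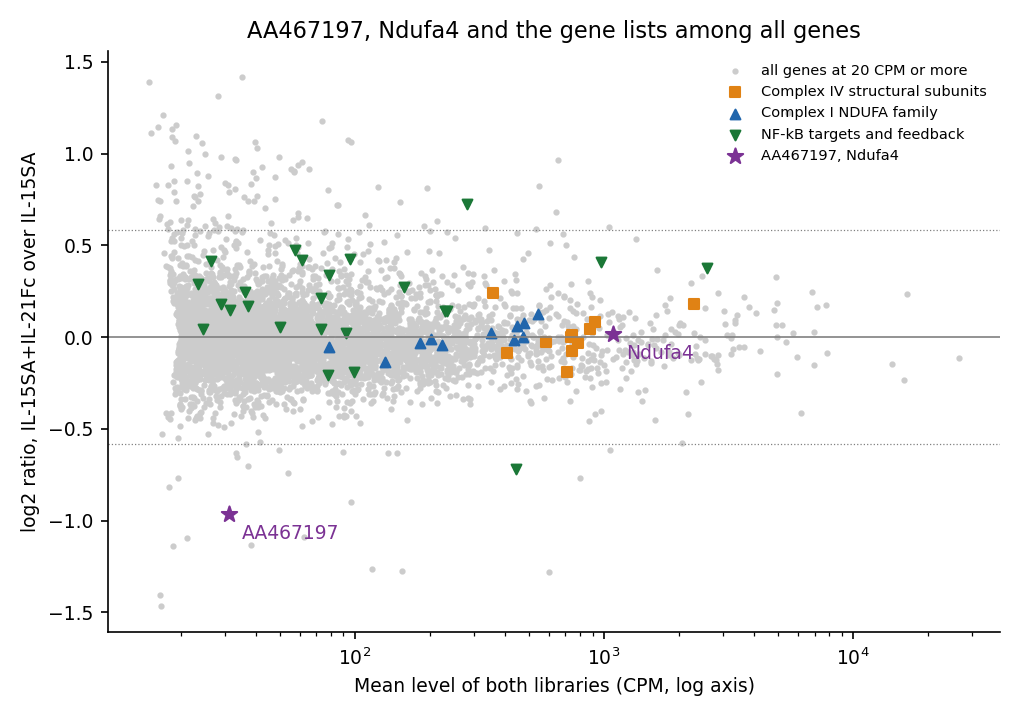
Log2 ratio of IL-15SA+IL-21Fc over IL-15SA (1 CPM added) against the mean level of the 2 libraries (CPM, log axis) for 5482 genes in Ncr1-positive barcodes, with dotted lines at 1.5-fold. AA467197 sits at -0.96, below the lower line, and Ndufa4 sits at 0.02 among the complex IV subunits (squares) and the complex I NDUFA family (triangles), all of which lie between the lines.

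Most barcodes held no AA467197 UMI. With IL-15SA+IL-21Fc, 10009 barcodes held 0, 396 held 1, 70 held 2 and 27 held 3 or more, with at most 6 in a barcode. With IL-15SA, 6562 barcodes held 0, 627 held 1, 135 held 2 and 69 held 3 or more, with at most 8. As the IL-15SA library was deeper per cell, each cell was thinned to 1000 UMIs, which left out 0 cells. The share with an AA467197 UMI was then 1.79% (1.55 to 2.06, 188 barcodes) with IL-15SA+IL-21Fc and 3.23% (2.84 to 3.66, 239 barcodes) with IL-15SA, where the unthinned shares were 4.69% with IL-15SA+IL-21Fc and 11.2% with IL-15SA. The share with an Ndufa4 UMI after thinning was 60.8% with IL-15SA+IL-21Fc and 61.1% with IL-15SA, and before thinning 83.7% with IL-15SA+IL-21Fc and 87.9% with IL-15SA. These shares count cells in which a UMI was captured, not cells that express the gene, and no cell type known to lack AA467197 was at hand to give the level of free RNA.

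Clusters were built with the family genes left out, and 7 of 8 had at least 100 Ncr1-positive barcodes in each library. Cluster 1 was led by Cd3g, Klra1, Klra7, Cd3d and Klra13-ps, which include Ly49 receptor genes. Cd3g and Cd3d are CD3 chain genes, although the cells were sorted as CD3-. Cluster 2 was led by Cma1, Ccl5, Serpinb9b, Ccl3 and Ccl4, which include a chymase and chemokines, and cluster 3 by the cell division genes Esco2, Nusap1, Hist1h2ab, Rrm2 and Fbxo5. Cluster 4 was led by Cd74, Krt83, Cxcr6, H2-Aa and H2-Eb1, which include MHC class II genes, cluster 6 by the granzyme genes Gzmg, Gzmf, Gzmd and Gzme with Gm44040, and cluster 7 by the interferon-induced genes Slfn5, Ifit2, Ifit3, Mx2 and Mx1. Cluster 5, led by Saa3, Dcn, Lrp1, Cald1 and Col1a2, met the definition of tumour or stroma-like, with 9 of 10 such markers at 5 times their median over clusters or more and NK markers at 0.221 of theirs. It held 6.23% of Ncr1-positive barcodes with IL-15SA+IL-21Fc and 4.33% with IL-15SA. Cluster 8, led by Gm29328, Rnf152, Tmem178b, Lsamp and Dscam, had 45 barcodes with 1 AA467197 UMI with IL-15SA+IL-21Fc and 54 barcodes with 4 AA467197 UMIs with IL-15SA, and is not compared.

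AA467197 was highest in the tumour or stroma-like cluster and, among the others, in the granzyme cluster, in both libraries. In cluster 5 it was at 64.6 CPM (54.5 to 76.1) with IL-15SA+IL-21Fc and 111 CPM (92.1 to 133) with IL-15SA. In cluster 6 it was at 58.8 CPM (45.6 to 74.7) with IL-15SA+IL-21Fc and 88.2 CPM (78.1 to 99.3) with IL-15SA. The intervals of clusters 5 and 6 overlap within each library, and both lie above those of the other 5 clusters.

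Those 5 clusters ran from 11.2 to 20.9 CPM with IL-15SA+IL-21Fc and from 21.5 to 38.8 CPM with IL-15SA. Cluster 1 had 20.9 CPM (17.9 to 24.4) with IL-15SA+IL-21Fc and 38.8 CPM (34.3 to 43.8) with IL-15SA, and cluster 4 had 17.0 CPM (13.5 to 21.1) with IL-15SA+IL-21Fc and 37.5 CPM (30.96 to 44.9) with IL-15SA. Cluster 2 had 12.2 CPM (9.15 to 15.9) with IL-15SA+IL-21Fc and 28.9 CPM (23.6 to 35.0) with IL-15SA, and the dividing cluster 3 had 11.2 CPM (9.03 to 13.7) with IL-15SA+IL-21Fc and 28.3 CPM (24.9 to 31.9) with IL-15SA. The interferon cluster 7 rested on 26 UMIs, 18.9 CPM (12.3 to 27.7), with IL-15SA+IL-21Fc and on 15 UMIs, 21.5 CPM (12.01 to 35.4), with IL-15SA. In the order of levels, neighbours among these 5 clusters had overlapping intervals in both libraries.

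AA467197 was lower with IL-15SA+IL-21Fc in 7 of 7 clusters, and the interval of the ratio lay below 1 in 6. The ratio was lowest in the dividing cluster 3, at 0.396 (0.309 to 0.505), followed by cluster 2 at 0.422 (0.298 to 0.591) and cluster 4 at 0.454 (0.338 to 0.607). Cluster 1 had 0.540 (0.442 to 0.658), the tumour or stroma-like cluster 5 had 0.581 (0.452 to 0.748) and the granzyme cluster 6 had 0.667 (0.503 to 0.874). In the interferon cluster 7 it was 0.880 (0.449 to 1.79), an interval that spans 1, and the thinned share of barcodes with AA467197 there was 2.47% (1.36 to 4.11) with IL-15SA+IL-21Fc and 1.36% (0.281 to 3.92) with IL-15SA. A lower level in all 7 clusters was found for 389 of the 5482 genes (7.10%). The share of genes with intervals below 1 in as many clusters was not counted. Cluster 6, high in AA467197, held 290 barcodes with IL-15SA+IL-21Fc and 670 with IL-15SA, but the granzyme genes that define it also differed between the libraries. Without cluster 6 the log2 ratio of AA467197 was -0.88, and the equal-weight mean of the log2 ratios within clusters was also -0.88.

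**Figure D2:**
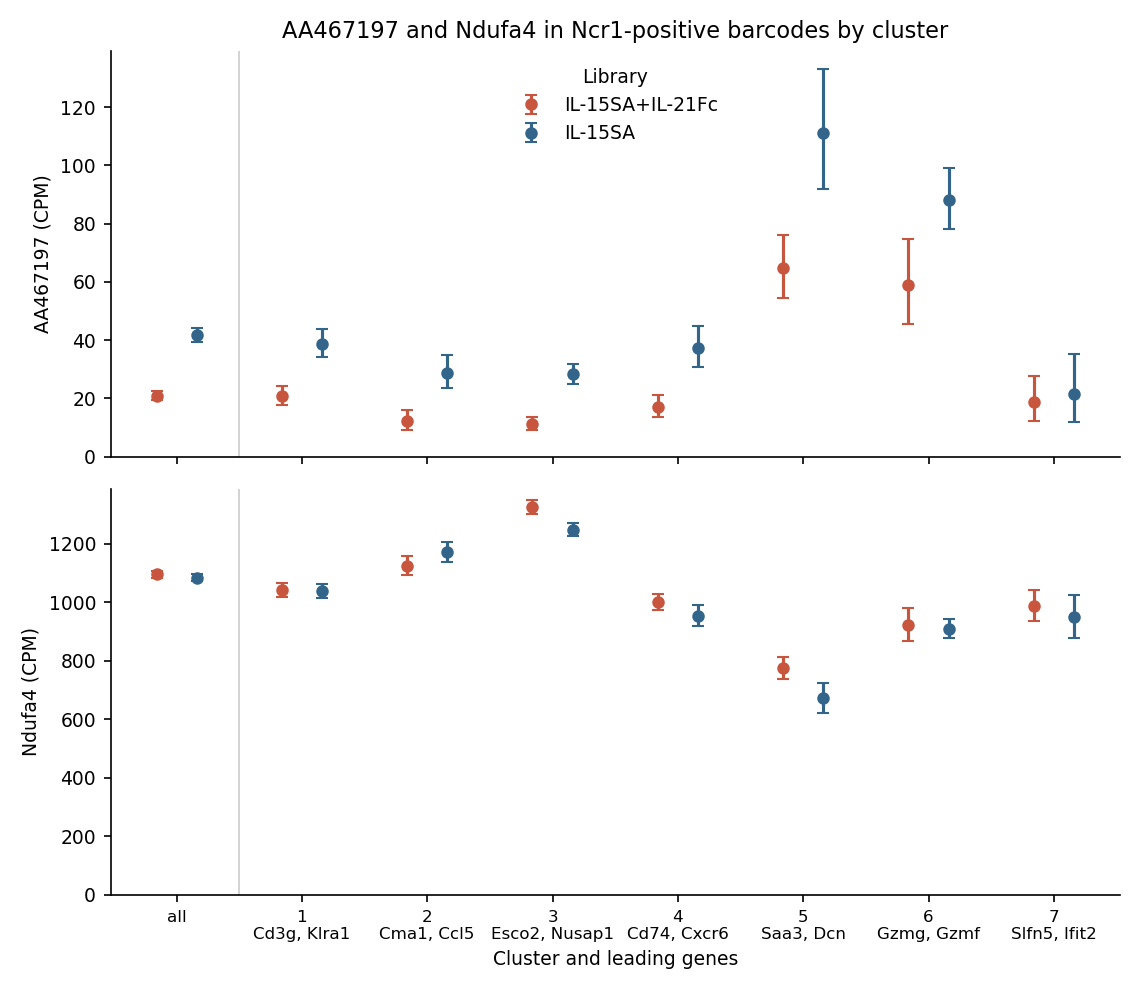
Levels (CPM) of AA467197 (upper panel) and Ndufa4 (lower panel) in all Ncr1-positive barcodes and in clusters 1 to 7, with IL-15SA+IL-21Fc left of IL-15SA; points are the pooled level of 1 library and bars its exact Poisson 95% interval. AA467197 is highest in clusters 5 and 6 and lower with IL-15SA+IL-21Fc in each cluster, and Ndufa4 is highest in cluster 3 and lowest in cluster 5.

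Ndufa4 tended to run the other way over clusters, though not in each cluster. It was highest in the dividing cluster 3, at 1325 CPM with IL-15SA+IL-21Fc and 1248 CPM with IL-15SA, then in cluster 2, at 1124 CPM with IL-15SA+IL-21Fc and 1171 CPM with IL-15SA, and in cluster 1, at 1042 CPM with IL-15SA+IL-21Fc and 1038 CPM with IL-15SA. Cluster 4 followed at 1000.5 CPM with IL-15SA+IL-21Fc and 954 CPM with IL-15SA, and cluster 7 at 987 CPM with IL-15SA+IL-21Fc and 949 CPM with IL-15SA. The granzyme cluster 6 had 921 CPM with IL-15SA+IL-21Fc and 910 CPM with IL-15SA, and cluster 5 was lowest, at 775 CPM with IL-15SA+IL-21Fc and 671 CPM with IL-15SA. The order of the 7 clusters was the same in both libraries. Clusters 3, 2 and 1 were apart beyond their intervals in both libraries, as were clusters 6 and 5, while neighbours among clusters 4, 7 and 6 overlapped. The intervals of clusters 1 and 4 overlapped with IL-15SA+IL-21Fc and not with IL-15SA. The ratio between libraries lay between 0.960 (0.922 to 1.001) in cluster 2 and 1.16 (1.06 to 1.26) in cluster 5. Over the 14 points of 7 clusters in 2 libraries, which share libraries and sets of cells, the levels of the 2 genes had a Pearson correlation of -0.768, and over the 12 points without cluster 5 one of -0.585.

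AA467197 UMIs per 1000 Ndufa4 UMIs spanned from 8.45 (6.81 to 10.4) in cluster 3 to 83.4 (69.9 to 98.9) in cluster 5 with IL-15SA+IL-21Fc, and from 22.6 in clusters 3 and 7 to 166 (135 to 202) in cluster 5 with IL-15SA. In the granzyme cluster 6 this quantity was 63.9 (49.1 to 81.8) with IL-15SA+IL-21Fc and 96.9 (85.3 to 110) with IL-15SA. Within a library the AA467197 UMIs per Ndufa4 UMI differed more between clusters than it did between the libraries.

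**Figure D3:**
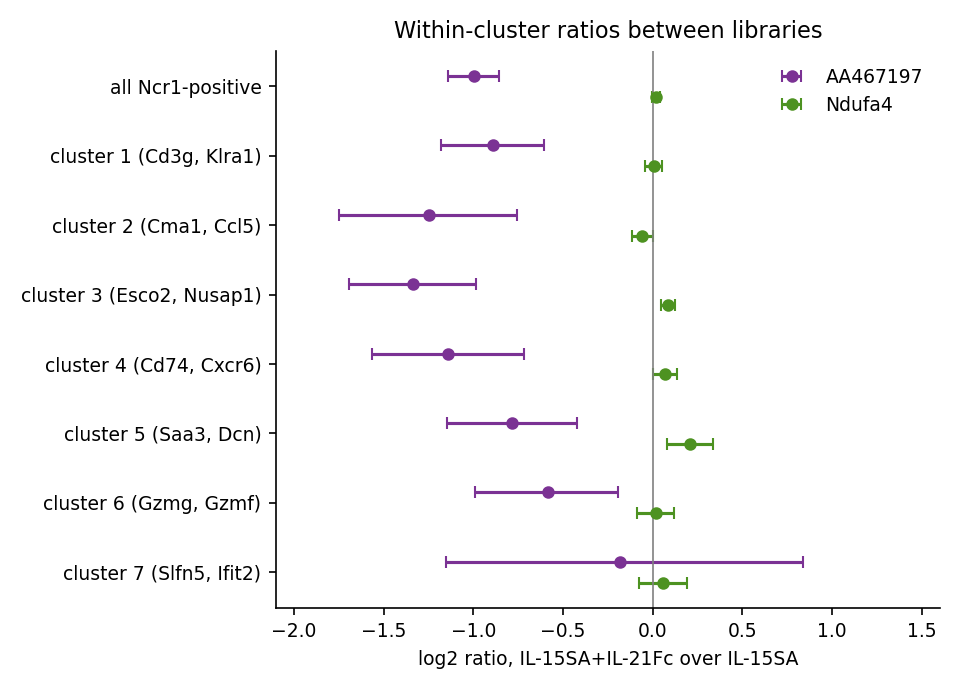
Log2 ratio of IL-15SA+IL-21Fc over IL-15SA for AA467197 (purple) and Ndufa4 (green) in all Ncr1-positive barcodes and in clusters 1 to 7, with exact conditional binomial 95% intervals. The AA467197 points run from -1.34 in cluster 3 to -0.18 in cluster 7, the only one whose interval spans 0, and the Ndufa4 points from -0.06 to 0.21.

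Marker gates, which need no clusters, called a thinned cell positive at 2 or more UMIs summed over a short list of genes. They were applied to all Ncr1-positive barcodes, with the tumour or stroma-like cluster included, where AA467197 is high. Gate levels without that cluster were not computed, so its part in the differences between positive and negative cells was not tested. Cells positive for granzymes C to G had AA467197 at 36.9 CPM (31.6 to 42.8) with IL-15SA+IL-21Fc and 66.3 CPM (60.7 to 72.3) with IL-15SA, and cells negative for them had 18.0 CPM (16.3 to 19.7) with IL-15SA+IL-21Fc and 32.2 CPM (29.7 to 34.7) with IL-15SA. Chemokine-positive cells (Ccl3, Ccl4, Xcl1) went the opposite way, at 16.1 CPM (14.3 to 18.1) with IL-15SA+IL-21Fc and 29.4 CPM (26.6 to 32.4) with IL-15SA. Chemokine-negative cells had 28.04 CPM (25.1 to 31.2) with IL-15SA+IL-21Fc and 53.4 CPM (49.7 to 57.35) with IL-15SA. Cells positive for the mature markers Cma1, S1pr5, Klrg1, Zeb2 and Cx3cr1 had 19.9 CPM (17.4 to 22.8) with IL-15SA+IL-21Fc, where negative cells had 21.5 CPM (19.4 to 23.6). In the IL-15SA library mature-positive cells had 48.7 CPM (44.5 to 53.1), above the 37.5 CPM (34.7 to 40.6) of negative cells.

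Cells positive for the G2 and M list had less AA467197 than the rest, 14.8 CPM with IL-15SA+IL-21Fc and 33.7 CPM with IL-15SA, where negative cells had 23.1 CPM with IL-15SA+IL-21Fc and 44.9 CPM with IL-15SA. Their Ndufa4 was higher, 1211 CPM with IL-15SA+IL-21Fc and 1167 CPM with IL-15SA, where negative cells had 1056 CPM with IL-15SA+IL-21Fc and 1051 CPM with IL-15SA. S-phase cells had Ndufa4 at 1309 CPM with IL-15SA+IL-21Fc and 1237 CPM with IL-15SA. AA467197 was lower with IL-15SA+IL-21Fc in the positive cells of 8 of 8 gates, each with an interval below 1, and the log2 ratios ran from -1.29 in mature cells to -0.72 in S-phase cells. A log2 ratio below 0 in the positive cells of all 8 gates was found for 950 of the 5482 genes (17.3%), and the share with all intervals below 1 was not counted. A cell can be positive in several gates, so the gates are not separate sets of cells. For cells positive for the interferon list, AA467197 was at 16.9 CPM with IL-15SA+IL-21Fc and 36.0 CPM with IL-15SA, a ratio of 0.471 (0.276 to 0.800).

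**Figure D4:**
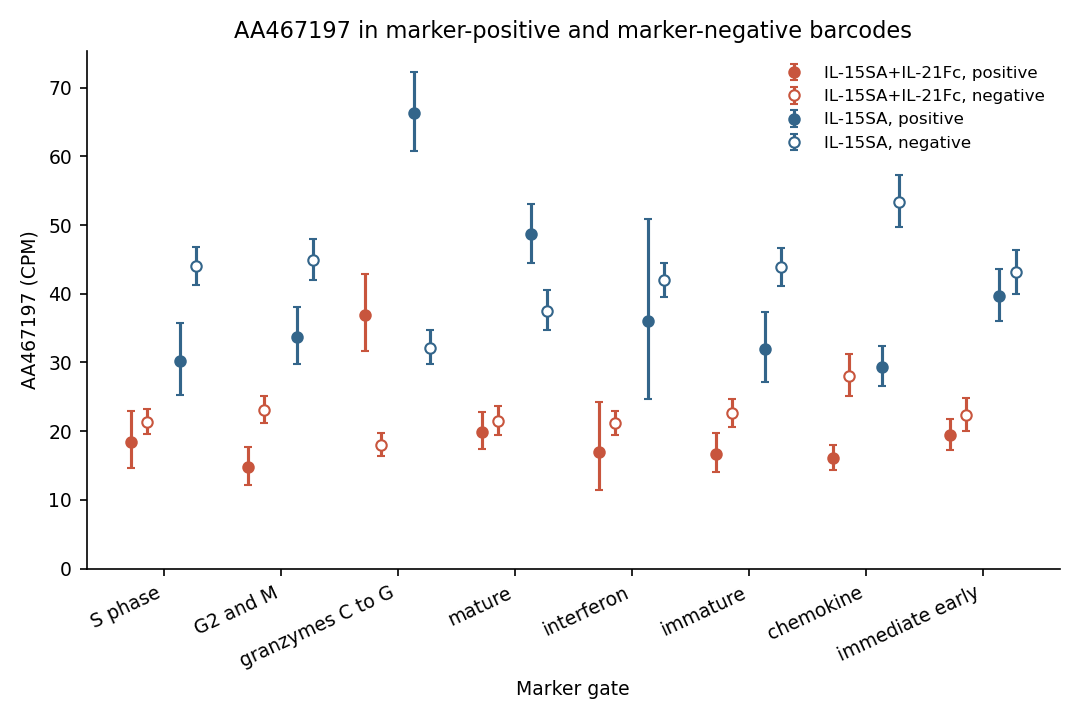
AA467197 level (CPM, exact Poisson 95% intervals) in cells positive (filled) and negative (open) for 8 marker gates, with IL-15SA+IL-21Fc left of IL-15SA within each gate. Granzyme-positive cells lie above granzyme-negative cells in both libraries, and chemokine-positive cells below chemokine-negative cells. The tumour or stroma-like cluster is included.

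As AA467197 was high in the tumour or stroma-like cluster, values that bear on RNA carried over from such cells stand here. Without that cluster, AA467197 was at 17.4 CPM (15.9 to 19.1) with IL-15SA+IL-21Fc and 39.0 CPM (36.6 to 41.4) with IL-15SA, a ratio of 0.447 (0.401 to 0.498) and 2.24-fold lower. Col1a2, a collagen gene that marks that cluster, went the opposite way between libraries in Ncr1-positive barcodes, with 74.9 CPM with IL-15SA+IL-21Fc and 39.5 CPM with IL-15SA, a ratio of 1.89 (1.76 to 2.04). In Ncr1-negative barcodes of cluster 5, AA467197 was at 87.6 CPM (74.3 to 102) with IL-15SA+IL-21Fc and 109 CPM (80.8 to 143) with IL-15SA, a ratio of 0.807 (0.585 to 1.13).

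AA467197 UMIs per 100 UMIs of tumour or stroma markers, with Lgals1 left out, were 2.70 (2.29 to 3.17) with IL-15SA+IL-21Fc and 3.60 (2.66 to 4.76) with IL-15SA in those Ncr1-negative barcodes. In Ncr1-positive barcodes of all other clusters they were 12.7 (11.5 to 13.97) with IL-15SA+IL-21Fc and 56.9 (52.7 to 61.5) with IL-15SA, and in the granzyme cluster 47.5 (35.0 to 64.0) with IL-15SA+IL-21Fc and 138 (115 to 167) with IL-15SA. The UMIs of AA467197 outside cluster 5 were more numerous per marker UMI than in the tumour or stroma-like barcodes, in both libraries. Of 10 macrophage and monocyte markers, 8 were detected with IL-15SA+IL-21Fc and 7 with IL-15SA, with C1qa at 0 in both libraries, Adgre1 at 0 with IL-15SA+IL-21Fc, and Csf1r and C1qc at 0 with IL-15SA. The list summed to 61.1 CPM with IL-15SA+IL-21Fc and 47.8 CPM with IL-15SA, of which Cd68 gave 37.4 CPM with IL-15SA+IL-21Fc and 29.1 CPM with IL-15SA, and Lyz2 had 7 UMIs with IL-15SA+IL-21Fc and 4 with IL-15SA. The part of macrophages and monocytes, and of RNA carried over from tumour or stroma-like cells, in the AA467197 levels was not tested.

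Genes that co-vary with AA467197 were ranked by the Pearson correlation over thinned cells, taking for each of 4879 genes the lower of the values in the 2 libraries. All correlations were weak in these sparse counts, with a highest of 0.0706 with IL-15SA+IL-21Fc and 0.0773 with IL-15SA, and the ranking is a description. The 15 highest were Tm4sf1, Lrp1, Col1a2, Gzmd, Cavin3, Cald1, Mt2, Ldha, Ccl2, Lmna, Spp1, Lgals1, Nupr1, Gzmc and Hspe1. They include the collagen gene Col1a2, the lactate dehydrogenase gene Ldha, the metallothionein gene Mt2 and the granzyme genes Gzmc and Gzmd. The level of 9 of the 15 in cluster 5 was more than 5 times that in the other clusters, which holds for 1.56% of the ranked genes. The 6 lowest were AW112010, Ms4a4b, Ccl5, Cd7, H2-D1 and Ctsw, among them a chemokine gene (Ccl5) and an MHC class I gene (H2-D1). Of the 50 highest genes of each library, 12 were shared, 24.0% of each list.

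With cluster 5 left out, the 15 highest were Gzmd, Gzmc, Car2, Aldoa, Gzmf, Hspe1, Spp1, Klrg1, Capg, Adk, Gzme, Prf1, Lgals1, Eno1 and Naa15. They include 4 granzyme genes, the pore-forming perforin gene Prf1 and the glycolysis genes Aldoa and Eno1, and 0 of them reached 5 times the level in cluster 5 that they had elsewhere. Outside cluster 5, Gzmc was at 1101 CPM in barcodes with an AA467197 UMI and 601 CPM in those without with IL-15SA+IL-21Fc, a ratio of 1.83 (1.56 to 2.14). In the IL-15SA library Gzmc was at 1953 CPM with and 913 CPM without, a ratio of 2.14 (1.93 to 2.36). Gzmd was 3.30 (2.31 to 4.597) times as high in barcodes with AA467197 in the IL-15SA+IL-21Fc library and 2.27 (1.81 to 2.82) times in the IL-15SA library. Cluster 6 is led by granzyme genes and high in AA467197, and leaving it out as well gave 1.43 (1.16 to 1.74) for Gzmc with IL-15SA+IL-21Fc and 1.83 (1.59 to 2.09) with IL-15SA. For Gzmd it gave 2.06 (1.06 to 3.64) with IL-15SA+IL-21Fc and 1.38 (0.848 to 2.13) with IL-15SA, an interval that spans 1. Spp1 encodes the secreted phosphoprotein osteopontin. Outside cluster 5, its level in barcodes with AA467197 was 1.34 (1.19 to 1.51) times that in barcodes without in the IL-15SA+IL-21Fc library. In the IL-15SA library it was 1.61 (1.497 to 1.73) times. Leaving out cluster 6 as well gave 1.29 (1.13 to 1.47) with IL-15SA+IL-21Fc and 1.43 (1.30 to 1.57) with IL-15SA. Gzmc, Gzmd and Spp1 were taken from the ranking over the same cells, so ratios above 1 are no separate support for it.

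Over all Ncr1-positive cells, barcodes with AA467197 held less Ndufa4. After thinning, Ndufa4 was at 856 CPM in barcodes with AA467197 and 1036 CPM in those without in the IL-15SA+IL-21Fc library, a ratio of 0.827 (0.703 to 0.966). In the IL-15SA library it was at 849 CPM with and 1041 CPM without, a ratio of 0.816 (0.706 to 0.938). Leaving out clusters 5 and 6, where Ndufa4 is low and AA467197 high, gave 0.961 (0.807 to 1.14) with IL-15SA+IL-21Fc and 0.848 (0.717 to 0.996) with IL-15SA. For the complex IV subunits Cox6c, Cox7c and Cox8a, the same ratio in all Ncr1-positive cells was 1.02, 0.934 and 0.955 with IL-15SA+IL-21Fc and 1.10, 0.925 and 1.02 with IL-15SA, each with an interval that spans 1, and for mt-Co1 it was 1.05 with IL-15SA+IL-21Fc and 1.04 with IL-15SA, also with intervals that span 1. Cox5a was about as low as Ndufa4 in barcodes with AA467197, at a ratio of 0.872 (0.711 to 1.06) with IL-15SA+IL-21Fc and 0.829 (0.697 to 0.978) with IL-15SA, so the lower level was not found for Ndufa4 alone. Leaving out clusters 5 and 6 gave 0.820 (0.640 to 1.04) for Cox5a with IL-15SA+IL-21Fc and 0.966 (0.797 to 1.16) with IL-15SA.

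Over the 12 points of clusters and libraries without cluster 5, the genes whose level followed AA467197 most closely were Pecam1 (Pearson correlation 0.946), Surf4 (0.937), Npepl1 (0.937), Krtcap2 (0.930) and Ifitm1 (0.929), and those most opposed were Tsc22d3 (-0.930) and Klf2 (-0.924). These points share libraries, depth and clusters, and the genes named are the extremes of a ranking of many genes. Pecam1, an adhesion receptor, was at 78.4 CPM with IL-15SA+IL-21Fc and 106 CPM with IL-15SA, and with cluster 5 added its correlation was -0.249. With cluster 5 added, the correlation was 0.409 for Surf4, 0.887 for Npepl1, 0.877 for Krtcap2 and 0.710 for Ifitm1. It was -0.952 for Tsc22d3 and -0.305 for Klf2.

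The other genes of complex IV are given from a list of subunits and a list of assembly factors. Of 21 structural subunits, 11 reached 20 CPM, and 0 of these 11 were past 1.5-fold in either direction, where 2.32% of all genes were, a background from which 0 of 11 cannot be told apart. Of the 11, 5 lay above 0 and 6 below, where 46.5% of all genes lay above and 53.5% below, and their median log2 ratio was 0.00. The highest were Cox7a2l, a factor in respiratory supercomplexes, with 388 CPM with IL-15SA+IL-21Fc and 328 CPM with IL-15SA, the catalytic core subunit mt-Co1 with 2438 CPM with IL-15SA+IL-21Fc and 2146 CPM with IL-15SA, and Cox8a with a log2 ratio of 0.08. The lowest were Cox5a with 663 CPM with IL-15SA+IL-21Fc and 756 CPM with IL-15SA, a log2 ratio of -0.19, then Cox7b and Cox7a2, both at -0.08. Cox4i1, a subunit that cells generally need, was at 0 in both libraries. With IL-15SA+IL-21Fc, mt-Co2 had 1 UMI and mt-Co3 had 2, beside 73552 for mt-Co1. With IL-15SA, mt-Co2 had 0 UMIs and mt-Co3 had 1, beside 59492 for mt-Co1. A value at or near 0 in these files thus does not show that a transcript is absent.

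Of 27 assembly and copper delivery genes, 18 reached 20 CPM, 0 were past 1.5-fold, 10 lay above 0 and 8 below, and the median log2 ratio was 0.02. Taco1, which activates translation of the COX1 subunit, had a log2 ratio of 0.23, Surf1, which acts in haem insertion, one of 0.21, and Pet100 one of 0.19. The lowest were Cox18, which inserts the COX2 subunit into the membrane, with 31.6 CPM with IL-15SA+IL-21Fc and 39.4 CPM with IL-15SA, a log2 ratio of -0.31, then Cox19 at -0.23 and Coa4 at -0.15, which within clusters was at 0.10. Of the 12 other NDUFA genes, which belong to complex I, 11 reached 20 CPM, 0 were past 1.5-fold, 5 lay above 0 and 6 below, and the median was -0.01, between -0.13 for Ndufa10 and 0.12 for Ndufa6. Next to Ndufa6, Ndufa7 had 0.08 and Ndufa2 0.06, and next to Ndufa10, Ndufa9 had -0.05 and Ndufa5 -0.04.

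NF-kB targets and feedback genes are given because NF-kB is known to induce AA467197. Of 30 listed, 24 reached 20 CPM, 21 of them lay above 0, where 46.5% of all genes did, and 3 below; the median log2 ratio was 0.20, against -0.01 over all genes. As an equal-weight mean within clusters, the median over these genes was 0.10, against -0.02 over all genes. The chemokine gene Ccl3 was past 1.5-fold higher, with 353 CPM with IL-15SA+IL-21Fc and 213 CPM with IL-15SA, a log2 ratio of 0.72, but its mean within clusters was 0.40, short of 1.5-fold. The costimulatory receptor gene Tnfrsf9 (4-1BB) was past 1.5-fold lower, with 336 CPM with IL-15SA+IL-21Fc and 553 CPM with IL-15SA, a log2 ratio of -0.72, and -0.61 within clusters. Nfkb2, at 0.47, and Nfkbiz, at 0.43, were the next highest, and Csf2, at -0.20, and Nfkb1, at -0.19, the next lowest; within clusters Csf2 was at -0.66. The NF-kB genes at 20 CPM with the highest mean correlation with AA467197 over cells were Tnfrsf9 (0.013), Zc3h12a (0.0098), Nfkb2 (0.0061) and Nfkbib (0.0038), all near 0. Of these, Tnfrsf9, Nfkb2 and Nfkbib had correlations of opposite sign in the libraries, and Zc3h12a was above 0 in both. The NF-kB genes with the lowest mean correlation were Ccl4 (-0.038), Ccl3 (-0.024), Nfkbiz (-0.018) and Nfkbia (-0.017), weak but further from 0. Nfkbia in barcodes with AA467197 over those without had a ratio of 0.864 (0.744 to 0.999) in the IL-15SA+IL-21Fc library. In the IL-15SA library the ratio was 0.814 (0.699 to 0.942). Leaving out clusters 5 and 6 gave 0.854 (0.717 to 1.01) with IL-15SA+IL-21Fc and 0.861 (0.724 to 1.02) with IL-15SA, intervals that span 1.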

How the data were processed

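Single-cell libraries were made in GEXSCOPE microwells from pooled sorted cells, per the labels' protocols. The files as deposited hold raw UMI counts for each gene in each barcode. Cutadapt, featureCounts, Seurat 4, Scanpy and mm10 appear in the submitters' processing notes without roles; no source used here names the aligner or the method of cell calling. Groups follow the sample titles, from which the series title differs.

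Barcodes under 200 genes or above 20% mitochondrial UMIs were removed (5 of the IL-15SA+IL-21Fc library and 0 of the IL-15SA library failed this). Scrublet's automatic threshold marked 0 cells with IL-15SA+IL-21Fc and 3 with IL-15SA, too few to have worked, so the 5% with the highest scores were removed (621 with IL-15SA+IL-21Fc and 419 with IL-15SA). Ncr1-positive means 1 UMI or more. Clustering used counts scaled to 10000 UMIs, 2000 variable genes, 30 components and 15 neighbours (Leiden, resolution 0.5; scanpy 1.11.5, leidenalg 0.10.2, Python 3.11.15). UMIs were summed per library and divided by the total of 30173963 for IL-15SA+IL-21Fc and 27716316 for IL-15SA. Intervals are exact Poisson (levels), conditional binomial (ratios) or Clopper-Pearson (shares). No test was made, as each group had 1 library. The code for ratios and correlations was checked on simulated counts, and that for thinning on these data. The simulated counts for ratios held counting error only, with no spread between cells or libraries. The members, the lists and the markers were chosen with earlier results of these data known. Named genes are the family, the 15 highest and 6 lowest co-varying genes, the 3 highest and 3 lowest of each list, 4 NF-kB genes by highest correlation and the 5 leading genes of each cluster. The genes named for their pattern over clusters, for cluster 5 left out, in the barcode comparison and for the lowest NF-kB correlations were chosen after values were seen. Alternatives varied the cells, scaling, filters and clustering.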

Additional observations from a re-analysis of the deposited data

How the results depend on the processing

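The lower AA467197 level with IL-15SA+IL-21Fc kept its direction under all 16 alternatives run, with log2 ratios between -1.16 and -0.85. Using all retained barcodes gave -0.85 for AA467197 and -0.85 per Ndufa4 UMI, and leaving out the tumour or stroma-like cluster gave -1.16 and -1.19. The Ndufa4 log2 ratio, 0.02 as reported, was 0.0905 after matching cells by their UMI totals and 0.0548 as an equal-weight mean within clusters, and its values ran from -0.0037 to 0.0905, its sign turning with the cells used, their weighting and thinning. Genes past 1.5-fold numbered 127, and 346 with a minimum of 5 CPM and 660 with no minimum. Of the 15 co-varying genes, 8 stayed among the 100 highest without the tumour or stroma-like cluster and 7 once the mean of each cluster and library was subtracted. The cause of these shifts was not tested. The counts of clusters or gates with lower AA467197 and of complex IV genes past 1.5-fold did not move. Leaving out shared barcodes, barcodes with tumour or stroma marker UMIs, cluster 6, or clusters 5 and 6 was chosen after seeing the data. Low UMI counts limit AA467197 in cluster 7. No paired analysis was possible because there was 1 library a group.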
